A study of Gallus gallus with 10 samples.

Results

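KLF2 (Krüppel-like factor 2, ENSGALG00000003939) and APOLD1 (apolipoprotein L domain containing 1, ENSGALG00000011784) were followed through 10 kidney libraries of broiler chickens. They are 2 of the 17108 genes in the count table, and both were among the 12187 genes with enough counts to be tested. The genes were chosen by identifier because their counts differed between diets in these same libraries. Their differences between diets are therefore given as a description, with standard errors but without a test. What the choice did not use was tested, namely how the genes varied among birds on 1 diet and between sequencing lanes at 1 diet.

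KLF2 is a zinc finger transcription factor. In mammalian blood vessels it is switched on in endothelial cells by steady blood flow, and it keeps the vessel wall in a quiescent, anti-inflammatory and anti-coagulant state through genes such as endothelial nitric oxide synthase and thrombomodulin. It is also known as a regulator of T cell quiescence and as an inhibitor of fat cell formation. APOLD1 is a small membrane-associated protein that was described in rodents and human cells as an early response gene of the vascular endothelium, where its transcript is short lived and is induced by injury and low oxygen. The kidney is dense in capillaries, and it also holds tubule cells, smooth muscle and leukocytes.

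The study asked how the kidney transcriptome of broilers responds to the concentration of calcium (Ca) in the feed. Commercial-type diets with 0.8, 1.0 or 1.2% Ca were fed until 21 days post-hatch, and kidney RNA of 3, 4 and 3 birds was sequenced, with 1 library per bird. All diets held the same non-phytate phosphorus and added phytase, so the groups differ by label only in Ca, and the pen of each bird was not given. In the study, body weight and feed intake were also lower with more Ca. Effects of Ca, body size and intake therefore cannot be told apart here. The birds sampled were those with a body weight near the mean of their diet. Replicates are numbered 1, 3 and 4 at 0.8% Ca, 1 to 4 at 1.0% Ca and 1 to 3 at 1.2% Ca. Whole kidney tissue was used, so fewer cells of a type and less RNA per cell cannot be told apart in any value below.

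Each library held between 6176553 and 7857813 counted fragments. The quasi-likelihood test of edgeR called 0 of 12187 genes (0%) between any pair of diets at an adjusted p under 0.05, although 1034 genes for 0.8 and 1.0% Ca, 1075 for 0.8 and 1.2% Ca and 448 for 1.0 and 1.2% Ca had an unadjusted p under 0.05. The likelihood ratio test of edgeR called 22 (0.181%), 19 (0.156%) and 3 (0.0246%) genes, DESeq2 called 31, 42 and 3, and limma-voom called 0. Lane 2 was listed for every 0.8% Ca library and for the 1.0% Ca replicates 3 and 4, and lane 1 for every 1.2% Ca library and for the 1.0% Ca replicates 1 and 2. Lane and diet therefore cannot be told apart between 0.8 and 1.2% Ca, except through the birds at 1.0% Ca.

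In Galgal4 with the Ensembl 84 annotation, KLF2 lies on the minus strand of chromosome 28 in 3 exon blocks. They run from 4146806 to 4147985, from 4148331 to 4149222 and from 4149344 to 4149435, a summed exon length of 2164 bases. APOLD1 lies on the plus strand of chromosome 1 as 1 exon block from 48049292 to 48049969, which is 678 bases. The locus that the study lists for APOLD1 runs from 48046727 to 48051925, so any fragments outside the annotated block were not counted for APOLD1. No other annotated gene overlapped either locus. The study measured KLF2 by PCR as well, and its primers are shown because they name the transcript that was followed outside the sequencing data. They have 68.8% and 64.7% G and C bases and are written 5′ to 3′ in lower case, and they were not placed on the genome here.
KLF2 forward: cccacctgcggacaca
KLF2 reverse: cagccctcccagttgca

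KLF2 was an abundant transcript of the kidney and was lower with more Ca in the diet. Values are CPM (fragments of the gene per 1000000 counted fragments) on library sizes scaled by TMM, the trimmed mean of M values, which sets the bulk of genes equal between libraries. At 0.8% Ca, KLF2 was at 387, 350 and 292 CPM in replicates 1, 3 and 4. At 1.0% Ca it was at 237, 290, 190 and 358 CPM in replicates 1 to 4. At 1.2% Ca it was at 159, 152 and 203 CPM in replicates 1 to 3. Every bird at 0.8% Ca was above every bird at 1.2% Ca, whereas the birds at 1.0% Ca spread over both and overlapped each neighbouring group. All birds at 1.2% Ca were below all birds at 0.8% Ca for 8.34% of the 12187 genes, so the lack of overlap by itself is no result about KLF2.

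From the lowest to the highest Ca, the mean level of KLF2 was 343 ± 47.5 (SD, n = 3), 269 ± 72.2 (SD, n = 4) and 171 ± 27.8 CPM (SD, n = 3). The log2 difference between 0.8 and 1.2% Ca was -1.0 (standard error 0.22). From 0.8 to 1.0% Ca the log2 difference was -0.35 (standard error 0.20), and from 1.0 to 1.2% Ca it was -0.65 (standard error 0.20). Neither neighbouring pair of diets was separated bird by bird, since the bird with the highest level at 1.0% Ca exceeded 2 of the 3 birds at 0.8% Ca and the bird with the lowest level at 1.0% Ca lay below 1 of the 3 birds at 1.2% Ca. As a slope over all birds, the log2 level changed by -0.50 (standard error 0.11) for each 0.2 percentage points of Ca. Of all tested genes, 111 (0.911%) had a lower log2 difference than KLF2 between 0.8 and 1.2% Ca. Since KLF2 was chosen for its differences between diets, this rank follows from the choice and is no result about KLF2.

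**Figure D1:**
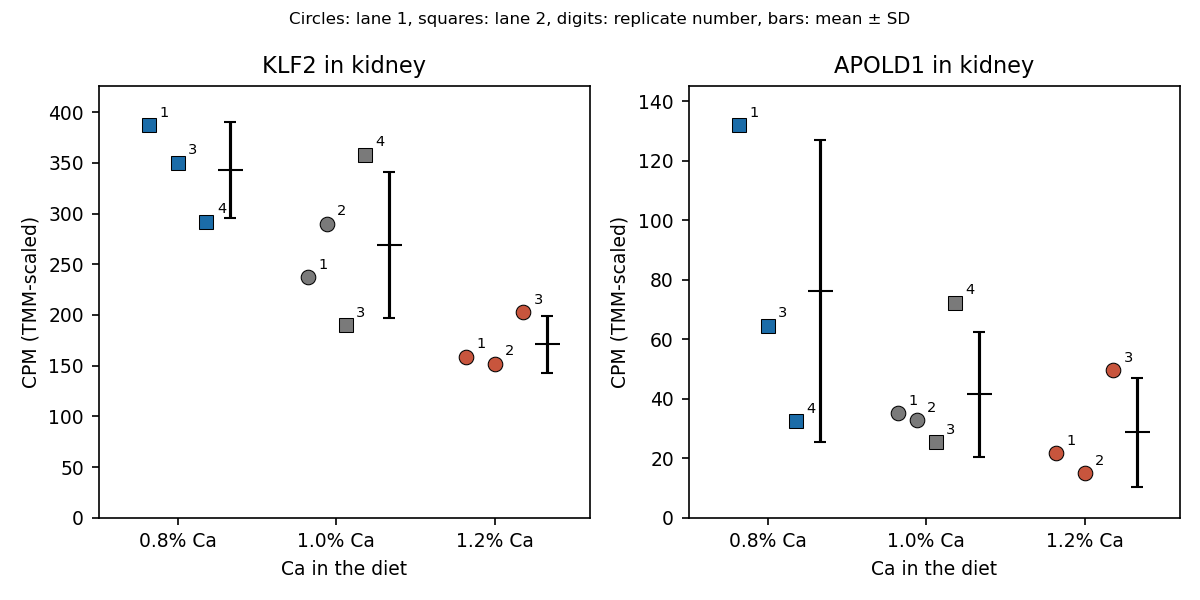
Level of KLF2 (left) and APOLD1 (right) in each kidney library, in TMM-scaled CPM, by Ca in the diet. Circles are libraries of lane 1 and squares those of lane 2, digits are replicate numbers, and bars give mean ± SD (n = 3, 4 and 3). KLF2 lay between 292 and 387 CPM at 0.8% Ca and between 152 and 203 CPM at 1.2% Ca, while the ranges of APOLD1 overlapped between all groups.

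APOLD1 was lower on average with more Ca too, but its birds differed far more within a diet. At 0.8% Ca, APOLD1 was at 132, 64.6 and 32.6 CPM in replicates 1, 3 and 4. At 1.0% Ca it was at 35.2, 32.9, 25.5 and 72.4 CPM in replicates 1 to 4. At 1.2% Ca it was at 21.7, 15 and 49.6 CPM in replicates 1 to 3. Replicate 1 at 0.8% Ca was the highest of all libraries, replicate 2 at 1.2% Ca the lowest, and every pair of groups overlapped. Replicate 3 at 1.2% Ca was above replicate 4 at 0.8% Ca and above 3 of the 4 birds at 1.0% Ca.

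In the same order, the mean level of APOLD1 was 76.4 ± 50.8 (SD, n = 3), 41.5 ± 21 (SD, n = 4) and 28.8 ± 18.3 CPM (SD, n = 3). Its log2 difference between 0.8 and 1.2% Ca was -1.40 (standard error 0.58), which leaves 37.9% of the level at 0.8% Ca. The log2 difference was -0.87 (standard error 0.52) from 0.8 to 1.0% Ca and -0.53 (standard error 0.54) from 1.0 to 1.2% Ca. The standard error of APOLD1 was more than 2 times that of KLF2. The order of the log2 differences of the genes depended on the fit, since without replicate 1 at 0.8% Ca APOLD1 was at -0.75 and KLF2 at -0.91. The slope was -0.70 (standard error 0.27) on the log2 scale for each 0.2 percentage points of Ca, and 36 genes (0.295%) had a lower slope. That rank too follows from the choice of the gene and is no result about APOLD1. For slopes the quasi-likelihood test called 0 genes (0%) at an adjusted p under 0.1, with 1099 at an unadjusted p under 0.05, and the likelihood ratio test called 35 (0.287%).

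For both genes the spread between birds was wider than counting error. Counting error alone gives a coefficient of variation of 1.95 to 3.05% for KLF2, with 1072 to 2624 fragments per library, and of 3.51 to 9.71% for APOLD1, with 106 to 812 fragments. The coefficient of variation between birds was 13.9, 26.9 and 16.2% for KLF2 and 66.4, 50.6 and 63.7% for APOLD1, from the lowest to the highest Ca. Counting error covers neither the birds nor the library preparation. The SD of log2 CPM within diets was 0.30 for KLF2 and 0.83 for APOLD1. Among the 500 genes nearest in mean CPM, the median SD was 0.15 around KLF2 and 0.17 around APOLD1, and 88.4 and 98.4% of those genes varied less than the gene itself. From the lowest to the highest library KLF2 varied 2.54-fold and APOLD1 varied 8.78-fold.

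To compare the level of the genes with each other, counts were also divided by exon length. As RPKM, which is CPM per kilobase of exon, KLF2 was at 159 ± 22.0, 124 ± 33.4 and 79.2 ± 12.8 and APOLD1 at 113 ± 74.9, 61.2 ± 31.0 and 42.5 ± 27.0 (SD, n = 3, 4 and 3), from the lowest to the highest Ca. By mean RPKM, KLF2 stood above 95.9% of tested genes and APOLD1 above 91.0%. The APOLD1 value rests on the short annotated block of its locus.

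The size of the APOLD1 difference depended on single birds, whereas that of KLF2 did so less. Without replicate 1 at 0.8% Ca, the log2 difference of APOLD1 between 0.8 and 1.2% Ca was -0.75, and without replicate 3 at 1.2% Ca it was -2.05. Leaving out replicate 4 at 1.0% Ca moved the upper step, from 1.0 to 1.2% Ca, to -0.12, and leaving out the third bird at 1.2% Ca moved it to -1.18. The lower step, from 0.8 to 1.0% Ca, was -0.22 when the first bird at 0.8% Ca was omitted and -1.28 when replicate 4 at 1.0% Ca was. All of these kept the direction and changed the size. With each library left out in turn, the KLF2 difference between 0.8 and 1.2% Ca stayed between -1.14 and -0.91. For the smaller step from 0.8 to 1.0% Ca, KLF2 ranged from -0.52 to -0.22, and from 1.0 to 1.2% Ca it ranged from -0.79 to -0.48.

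**Figure D2:**
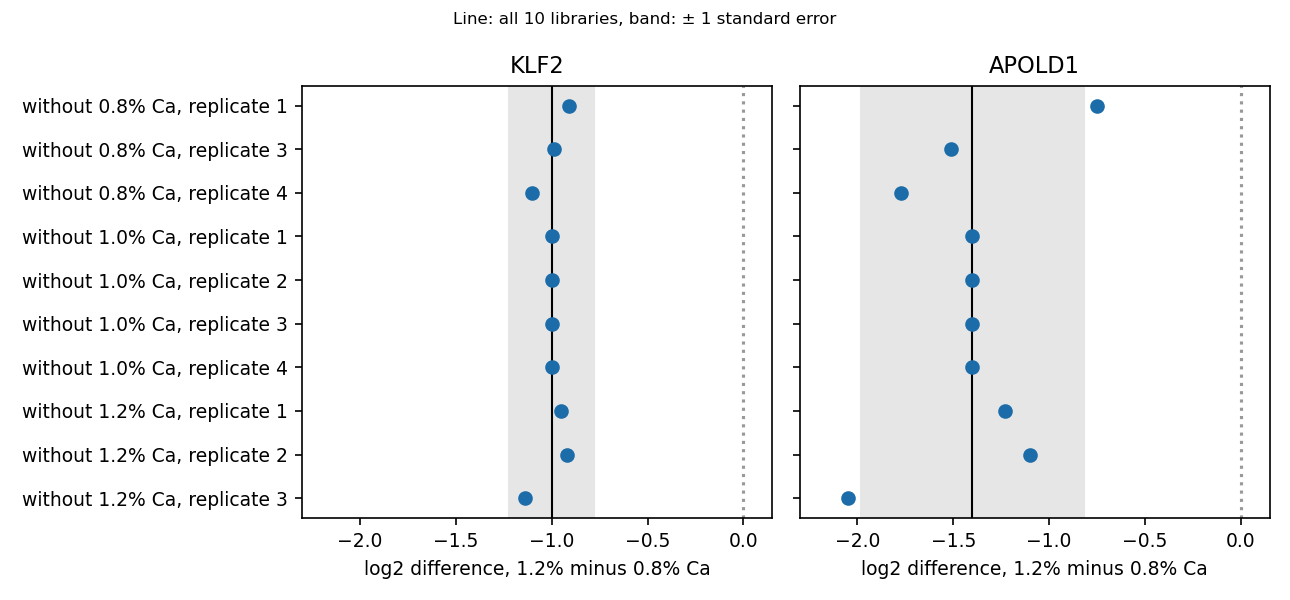
Log2 difference between 0.8 and 1.2% Ca (negative: lower at 1.2% Ca) with each library left out in turn, for KLF2 (left) and APOLD1 (right). The black line is the value over all 10 libraries with a band of 1 standard error on each side. KLF2 stayed between -1.14 and -0.91, and APOLD1 moved between -2.05 and -0.75.

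Birds on the same diet were compared between lanes, which the choice of the genes had not used. At 1.0% Ca, KLF2 was at 237 and 290 CPM in lane 1 and at 190 and 358 CPM in lane 2. The log2 difference from lane 1 to lane 2 was 0.05 (standard error 0.27, adjusted p = 0.967, quasi-likelihood test of edgeR). APOLD1 was at 35.2 and 32.9 CPM in lane 1 and at 25.5 and 72.4 CPM in lane 2, with a log2 difference of 0.53 (standard error 0.71, adjusted p = 0.849, quasi-likelihood test of edgeR). For both genes the birds of lane 2 enclosed those of lane 1. With 2 birds per lane the approximate 95% interval ran from -0.48 to 0.59 for KLF2 and from -0.87 to 1.93 for APOLD1. The interval of APOLD1 includes a lane difference as large as its difference between 0.8 and 1.2% Ca. That of KLF2 includes a lane difference as large as its step from 0.8 to 1.0% Ca (-0.35). By this test 0 of 12187 genes (0%) differed between lanes (903 at an unadjusted p under 0.05), and by the likelihood ratio test 1 did (0.00821%).

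Within lane 2, the mean log2 CPM of KLF2 was 8.41 at 0.8% Ca and 8.03 at 1.0% Ca, a difference of -0.39. Within lane 1 it was 8.04 at 1.0% Ca and 7.41 at 1.2% Ca, a difference of -0.63. For APOLD1 the same differences were -0.60 within lane 2 and -0.42 within lane 1. Both genes thus had the lower mean at the higher Ca in each lane, with 2 or 3 birds on each side. With lane as a covariate, the log2 difference between 0.8 and 1.2% Ca was -0.95 (standard error 0.35) for KLF2 and -0.87 (standard error 0.92) for APOLD1. In that fit the APOLD1 difference from 1.0 to 1.2% Ca was -0.24 (standard error 0.66) and its slope -0.44 (standard error 0.45), and each of these 3 APOLD1 values was smaller in size than its standard error.

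Among birds on the same diet, a bird with more KLF2 also had more APOLD1. At 0.8% Ca both genes followed the order of replicates 1, 3 and 4, and at 1.2% Ca both had replicate 3 highest and replicate 2 lowest. At 1.0% Ca replicate 4 was highest and replicate 3 lowest for both. As deviations of log2 CPM from the mean of the diet, replicate 1 at 0.8% Ca was at 0.18 for KLF2 and 1.01 for APOLD1, and replicate 4 was at -0.22 and -1.0. Replicate 4 at 1.0% Ca was at 0.45 and 0.91, and replicate 3 at -0.46 and -0.58. The exception to a shared sign beyond the near-zero replicate 3 at 0.8% Ca was replicate 2 at 1.0% Ca, with 0.15 for KLF2 and -0.22 for APOLD1.

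Over the 10 birds, the deviations had a Pearson's r of 0.829 (two-sided exact permutation test within diets, p = 0.00231) and a Spearman's rho of 0.855 (p = 0.00347 by the same exact test). The smallest p that the 864 orders allow is 0.00116. This was the 1 relation tested, so no adjustment over relations was made, though the pair was chosen with earlier results of these data known. With deviations taken from the means of diet and lane together, r was 0.841 (exact permutation p = 0.0139). With each bird left out in turn, r lay between 0.774 and 0.881. Without replicates 3 and 4 at 1.0% Ca, the birds farthest from the median deviation of KLF2, r was 0.865 (exact permutation p = 0.0278). The birds farthest from the median deviation of APOLD1 were replicate 1 of the 0.8% Ca group and replicate 3 of the 1.2% Ca group. Without these birds, r was 0.844 and the exact permutation p was 0.0521, which misses the threshold. Replicate 4 at 0.8% Ca (-1.0) lay farther from its diet mean than replicate 3 at 1.2% Ca (0.96). Leaving it out in place of that bird was not tried. The reference gene GAPDH, a glycolytic enzyme, had an r of 0.69 with KLF2 and 0.56 with APOLD1 in the same deviations, and its part in the relation was not tested.

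**Figure D3:**
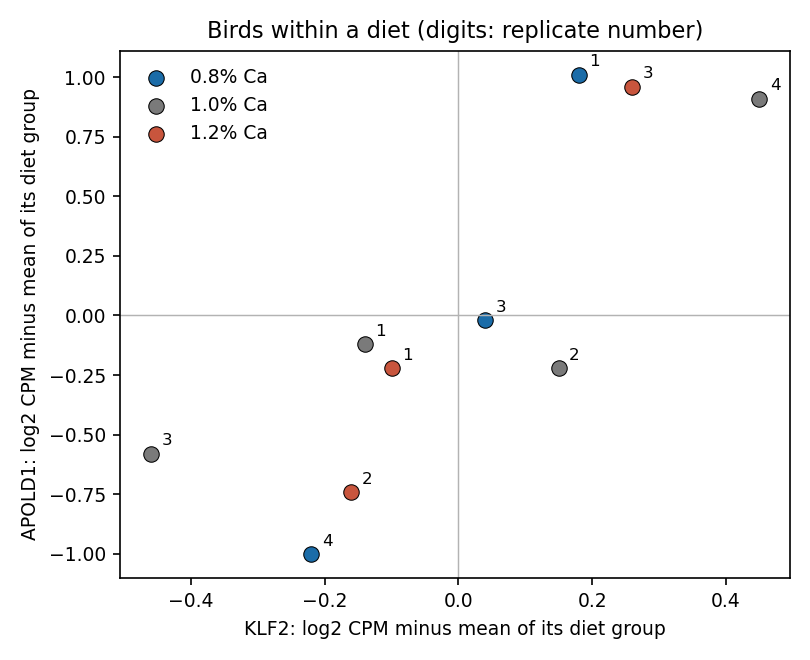
Deviation of log2 CPM from the mean of the bird's own diet group, KLF2 on the x axis and APOLD1 on the y axis, 1 point per bird with its replicate number. The points rise from replicate 3 at 1.0% Ca (-0.46 and -0.58) to replicate 4 at 1.0% Ca (0.45 and 0.91), and the 10 birds have an r of 0.829.

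The relation was closer than for most genes, though not the closest. Of the 12186 other tested genes, 59 had a higher r with KLF2 within diets than APOLD1 had, and 53 had a higher r with APOLD1 than KLF2 had. Genes share libraries and scaling, so these ranks describe the libraries and carry no p. Over the uncentred log2 CPM, which holds the diet differences that chose the genes, r was 0.854.

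Genes most like each member were sought by Pearson's r over the 10 libraries, and they were named where the tables of the study name them. MCL1, which encodes a short-lived survival protein of the BCL2 family, was second among all genes in likeness to KLF2 within diets (r = 0.945). It was seventh over log2 CPM (r = 0.895), and its r with APOLD1 over log2 CPM was 0.877. MCL1 was at 884, 540 and 443 CPM at 0.8% Ca, at 451, 661, 328 and 780 CPM at 1.0% Ca, and at 294, 323 and 494 CPM at 1.2% Ca, in the order of the replicates. Its highest and lowest birds at 1.0 and at 0.8% Ca were those of KLF2, and its groups overlapped. SLCO2A1, a prostaglandin transporter that mammalian endothelium carries, was near the top for APOLD1 over log2 CPM (r = 0.888), which holds the diet differences that chose APOLD1. Within diets the r of SLCO2A1 with APOLD1 was 0.82, above that of 99.4% of genes but below the 0.829 of KLF2. Over log2 CPM, genes without a name in these tables came first, ENSGALG00000006702 for KLF2 (r = 0.940) and ENSGALG00000008414 for APOLD1 (r = 0.954). ENSGALG00000021694, also without a name, came second for KLF2 (r = 0.927) and for APOLD1 (r = 0.921). Within diets, ENSGALG00000016941 came first for APOLD1 (r = 0.966). Of the 100 genes most like each member, 38 were in both lists over log2 CPM and 23 in both within diets. Shared genes follow from the r between the members, and log2 CPM holds the diet differences that chose them. The counts are therefore no further result.

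The nearest annotated genes lie 9838 and 21025 bases from KLF2 and 15015 and 7552 bases from APOLD1. Of these, the one 15015 bases from APOLD1 had 0 to 7 fragments per library and was not tested. The other genes had log2 differences of 0.04, 0.06 and 0.11 between 0.8 and 1.2% Ca (adjusted p = 0.903, 0.905 and 0.859 by the quasi-likelihood test of edgeR, which called 0% of all genes in this comparison).

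The tables of the study give the name KLF2 to another locus too, ENSGALG00000010101 on the plus strand of chromosome 8 from 19315964 to 19319691, with 3 exon blocks. The RefSeq gene table of a later assembly, GRCg7b, holds 1 gene called KLF2 and 1 called APOLD1. ENSGALG00000010101 was at 148, 91.1 and 98.9 CPM at 0.8% Ca, at 79.1, 71.7, 124 and 98.4 CPM at 1.0% Ca, and at 51.9, 75.3 and 72.9 CPM at 1.2% Ca. The birds at 0.8% Ca were all above those at 1.2% Ca, as for KLF2 and for 8.34% of all tested genes. Its log2 difference between these diets was -0.76 (standard error 0.24, adjusted p = 0.463 by the quasi-likelihood test and 0.279 by the likelihood ratio test of edgeR). The study had called this locus for the same pair of diets on these samples, so the difference is not independent evidence. Within diets ENSGALG00000010101 did not follow KLF2, with an r of -0.05, and its r with APOLD1 was 0.30. Whether the loci share fragments was not tested.

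Early response genes are transcribed within minutes of a stimulus without new protein, and many of their transcripts are short lived. Of 39 symbols in a list of such genes, some of them older and newer symbols of the same gene, 8 could be identified. They were the transcription factors FOS, EGR1 and ATF3, MCL1, the salt-inducible kinase SIK1, the atypical IκB protein NFKBIZ, the glutathione-degrading enzyme CHAC1 and the deubiquitinase OTUD1. The list was drawn broadly, and CHAC1 in it is a stress response gene that does not meet this definition. The tables that name the 8 genes list genes the study had called on these samples, so their directions are not independent evidence. In each pair of diets 0 of 8 passed the quasi-likelihood or the likelihood ratio test, against 0 and up to 22 of all genes. Between 0.8 and 1.2% Ca, 3 had a log2 difference above 0 and 5 below, with a median of -0.44, beside a median of 0.008 over all genes. From 0.8 to 1.0% Ca, 5 were above 0 and 3 below (median 0.53), and from 1.0 to 1.2% Ca 0 were above and 8 below (median -0.60).

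FOS, EGR1 and ATF3, the classical members, were not arranged like KLF2. EGR1 was at 408, 342 and 249 CPM at 0.8% Ca, at 898, 214, 329 and 1130 CPM at 1.0% Ca, and at 410, 322 and 308 CPM at 1.2% Ca. Replicates 1 and 4 at 1.0% Ca stood above all other libraries. FOS had its highest values in the same birds, at 114 and 147 CPM, and so did ATF3, at 195 and 202 CPM. In KLF2, replicate 4 of this group was high and replicate 1 was not. Within diets the r with KLF2 was 0.36 for EGR1, 0.33 for FOS and 0.28 for ATF3, and with APOLD1 it was 0.48, 0.57 and 0.25. For SIK1 it was 0.75 with KLF2 and 0.68 with APOLD1, and for CHAC1 0.86 and 0.59, where the 0.59 was close to the 0.57 of FOS. OTUD1 had -0.36 and -0.01, and NFKBIZ had 0.18 and 0.10.

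After MCL1, SIK1 and CHAC1 had the highest r with KLF2 in this list. SIK1 was at 242, 191 and 212 CPM at 0.8% Ca, at 243, 184, 112 and 273 CPM at 1.0% Ca, and at 148, 98.9 and 178 CPM at 1.2% Ca. Its birds at 1.2% Ca were all below those at 0.8% Ca, as they were for 8.34% of the 12187 genes. The log2 difference of SIK1 was -0.60 (standard error 0.30, adjusted p = 0.582 by the quasi-likelihood test of edgeR). CHAC1 ranged from 25.1 to 54.6 CPM at 0.8% Ca, from 11.9 to 107 CPM at 1.0% Ca and from 8.80 to 23.8 CPM at 1.2% Ca, and its log2 difference between 0.8 and 1.2% Ca was -1.24 (standard error 0.79, adjusted p = 0.665 by the same test). The 0.8 and 1.2% Ca groups of CHAC1 did not overlap, and the 1.0% Ca group overlapped both. With the share of 8.34% over all genes, the lack of overlap is by itself no result about SIK1 or CHAC1.

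Of 25 symbols in a list of genes that in mammals act upstream of KLF2 or respond to blood flow or to KLF2, 5 could be identified. NOV and CCN3 in this list are symbols of the same gene. In each pair of diets 0 of 5 passed either test, against 0 of 12187 genes (0%) by the quasi-likelihood test and 22, 19 and 3 by the likelihood ratio test, so the count is that of the background. These genes too were named only because the study had called them on these samples. They were SLCO2A1, the prostaglandin D synthase PTGDS, the apelin receptor APLNR, the chemokine CXCL12 and the matricellular protein NOV. Between 0.8 and 1.2% Ca, 1 had a log2 difference above 0 and 4 below, with a median of -0.61, beside 0.008 over all genes. APLNR was at 68.3, 56.1 and 48.8 CPM at 0.8% Ca, at 40.8, 30.8, 28.6 and 29.3 CPM at 1.0% Ca, and at 22.4, 20.3 and 51.6 CPM at 1.2% Ca. Replicate 3 at 1.2% Ca stood above its group, as it did for APOLD1. The log2 difference of APLNR between 0.8 and 1.2% Ca was -0.87 (standard error 0.32, adjusted p = 0.471 by the quasi-likelihood test of edgeR).

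SLCO2A1 was at 184, 157 and 125 CPM at 0.8% Ca, at 149, 102, 114 and 132 CPM at 1.0% Ca, and at 88.5, 80.0 and 137 CPM at 1.2% Ca. Its log2 difference between 0.8 and 1.2% Ca was -0.61 (standard error 0.22, adjusted p = 0.471 by the same test), and here too replicate 3 was the highest bird at 1.2% Ca. Within diets the r with APOLD1 was 0.82 for SLCO2A1, 0.80 for PTGDS, 0.66 for APLNR, 0.44 for NOV and -0.82 for CXCL12. The r with KLF2 was 0.49, 0.75, 0.41, 0.56 and -0.65 in the same order. CXCL12 thus ran against both members among birds on a diet, and it was lowest in replicate 1 at 0.8% Ca (97.9 CPM), the bird highest in both members.

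**Figure D4:**
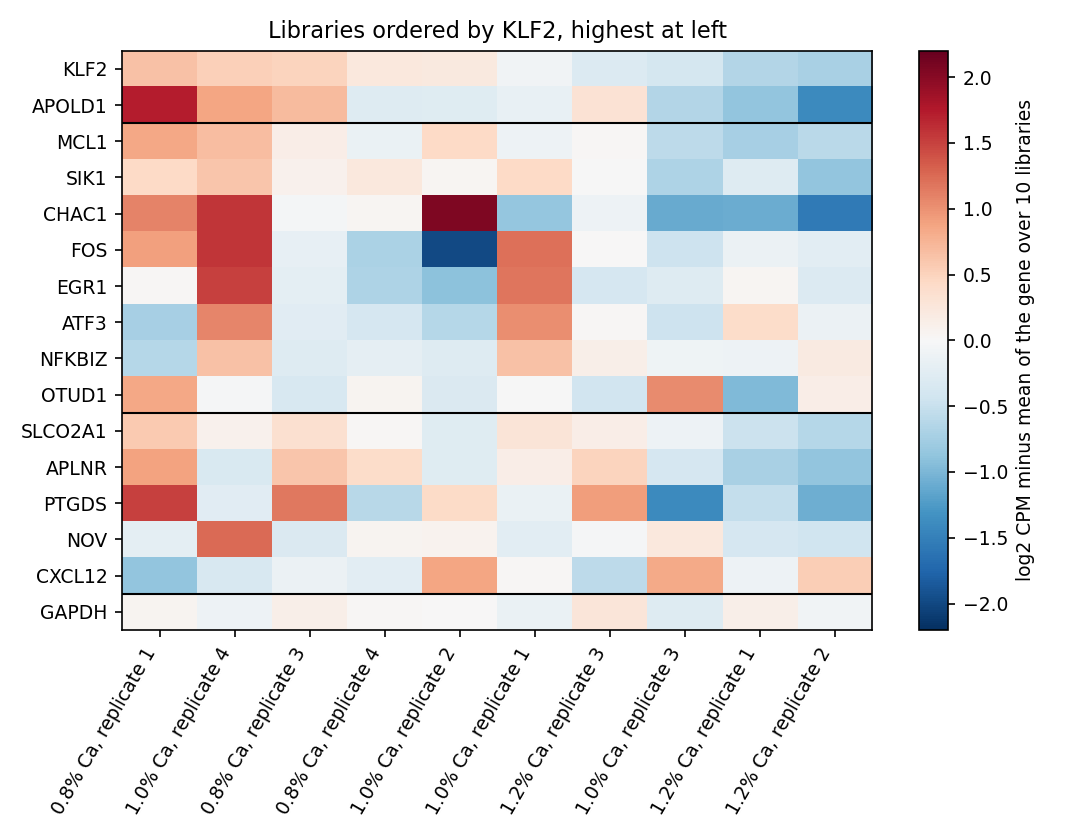
Log2 CPM of each gene minus its mean over the 10 libraries (colour), with libraries ordered from the highest KLF2 at the left to the lowest at the right. Lines separate KLF2 and APOLD1, the identified genes of the early response list, the identified genes of the flow list, and GAPDH. FOS, EGR1 and ATF3 are highest in replicates 1 and 4 at 1.0% Ca, while MCL1 follows the order of KLF2 more closely (r = 0.895).

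The endothelial source of the members could not be checked in these data. Of 20 endothelial markers only APLNR could be identified, and 0 of 14 markers of kidney tubule and glomerulus, 0 of 7 of smooth muscle and pericytes, 0 of 10 of erythrocytes and 0 of 15 KLF family members. Of 10 leukocyte markers SPI1, a transcription factor of myeloid cells, was identified, again through the calls of the study on these samples. It was at 107 ± 21.5, 77.2 ± 19.1 and 124 ± 56.2 CPM (SD, n = 3, 4 and 3) from the lowest to the highest Ca, with an r within diets of 0.08 with KLF2 and 0.30 with APOLD1. APLNR had a log2 difference of -0.87 between 0.8 and 1.2% Ca (standard error 0.32, adjusted p = 0.471 by the quasi-likelihood test of edgeR). Its r within diets was 0.41 with KLF2 and 0.66 with APOLD1, and it too was named through the calls of the study. The part of cell composition in the member differences was not tested.

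Of 5 adipocyte markers, the lipid carrier FABP4 and the lipase LPL were identified. FABP4 was at 0.724 ± 0.588, 3.83 ± 1.64 and 11.3 ± 11.7 CPM (SD, n = 3, 4 and 3). Between 0.8 and 1.2% Ca it was called by the likelihood ratio test of edgeR (adjusted p = 0.0298), which called 0.156% of all genes. FABP4 was not called by the quasi-likelihood test of edgeR (adjusted p = 0.423). Its r within diets was -0.40 with KLF2 and -0.70 with APOLD1. LPL was at 76.5 ± 29.6, 57.3 ± 18.2 and 45.3 ± 7.68 CPM, with r of -0.19 and 0.24, so the markers of this list did not share a direction. FABP4 and LPL too were named because the study had called them on these samples, so their differences are not independent evidence.

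KLF2 is also a known target of FoxO transcription factors in mammals. Of 11 genes in a list of FoxO factors and their targets, PDK4, a kinase that limits glucose oxidation, was identified. PDK4 was at 87.2, 91.4 and 38.9 CPM at 0.8% Ca, at 39.1, 66.8, 34.6 and 54.5 CPM at 1.0% Ca, and at 12.5, 44.6 and 25.8 CPM at 1.2% Ca. Its groups overlapped, with a log2 difference between 0.8 and 1.2% Ca of -1.39 (standard error 0.45, adjusted p = 0.463 by the quasi-likelihood test of edgeR) and an r within diets of 0.45 with KLF2 and 0.30 with APOLD1. Of 15 genes of low oxygen and heat shock, the glycolytic enzyme LDHA was identified. It had a log2 difference of 0.28 (standard error 0.39, adjusted p = 0.859 by the same test) and an r within diets of 0.03 with KLF2 and 0.35 with APOLD1. PDK4 and LDHA too were named because the study had called them on these samples, so their differences are not independent evidence.

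**Figure D5:**
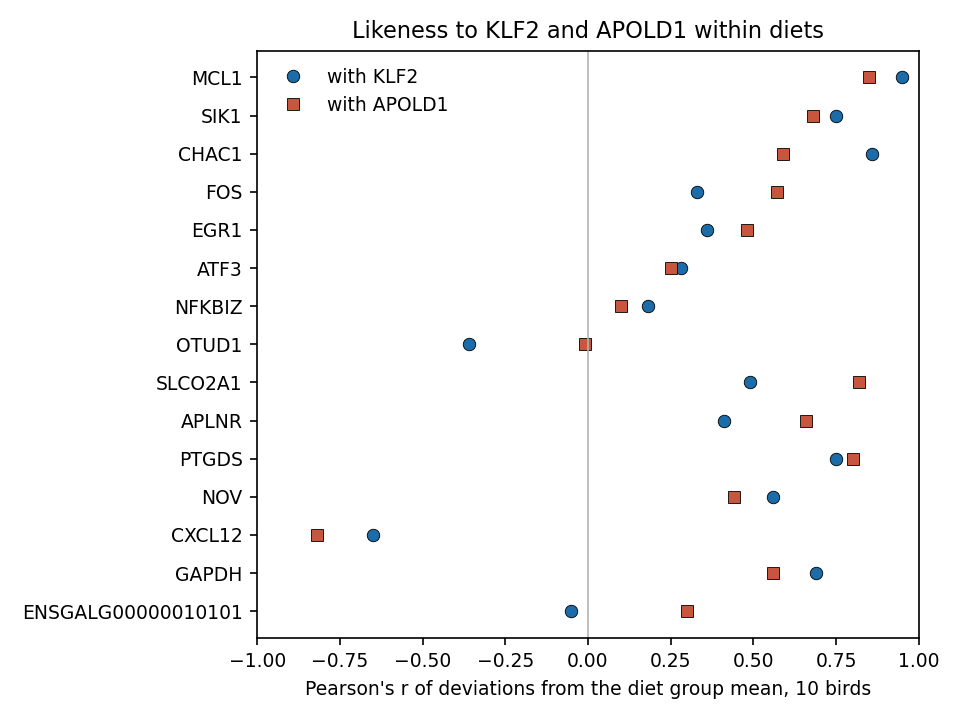
Pearson's r of each identified gene with KLF2 (circles) and with APOLD1 (squares), over deviations of log2 CPM from the diet group mean in 10 birds. MCL1 lies at 0.95 and 0.85, CXCL12 at -0.65 and -0.82, and the other locus called KLF2, ENSGALG00000010101, at -0.05 and 0.30.

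GAPDH, the reference gene of the PCR measurements in the study, was at 622 ± 21.1, 542 ± 45.3 and 640 ± 75.2 CPM (SD, n = 3, 4 and 3) from the lowest to the highest Ca. Relative to GAPDH, the log2 difference of KLF2 was -0.18 from 0.8 to 1.0% Ca, -0.86 from 1.0 to 1.2% Ca and -1.04 from 0.8 to 1.2% Ca. For APOLD1 these values were -0.57, -0.83 and -1.40. These values are differences of mean log2 counts, whereas the log2 differences above are coefficients of the edgeR fit. Beside that fit, less of the difference lay in the lower step in Ca and more in the upper one, with the whole range nearly the same. In the edgeR fit, GAPDH itself had a log2 difference of -0.20 (standard error 0.10) from 0.8 to 1.0% Ca. From 1.0 to 1.2% Ca it was 0.24 (standard error 0.10), and from 0.8 to 1.2% Ca 0.04 (standard error 0.11). The parts of the reference and of the way of averaging in this shift were not tested.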

How the data were processed

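Kidney RNA was sequenced in 10 birds. The authors used HISAT2 2.0.4 with Galgal4 and deposited raw fragment counts per Ensembl 84 gene, made with featureCounts 1.5.0-p3 without a strand option. The labels name a stranded kit and the methods another. Lanes were taken from the read table of the study, and the column headers of the counts give the same lanes. The methods of the study describe a single lane.

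Counts were filtered with filterByExpr, scaled by TMM and fitted with the quasi-likelihood test of edgeR 4.0.16 in R 4.3.3 over all libraries, with Benjamini-Hochberg adjustment over 12187 genes. Thresholds were 0.05 for pairs and lanes and 0.1 for the slope. Alternatives were limma-voom (limma 3.58.1), DESeq2 1.42.0, the likelihood ratio test, other scalings and filters, lane, replicate block, GAPDH and each library left out. Alternatives to the lane comparison within 1.0% Ca, and the correlations without 2 birds, were added after seeing the data. Log2 CPM used a prior count of 2. Permutations were exact, within diets, in Python 3.11.15.

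The members and the 11 lists (161 symbols, 18 identified) were chosen with earlier results of these data known. Named were the members, another locus called KLF2, named genes among the 20 most alike, identified list genes, neighbours and GAPDH. Names came from the study's tables for 154 genes, since 0 of 17108 identifiers were in the RefSeq table. P-values set results against the spread between birds. The pens of the birds were not given, so differences between pens are not accounted for.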

Additional observations from a re-analysis of the deposited data

Results flagged for a closer look

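OTUD1, a deubiquitinase in the list of early response genes, stood at 262 CPM in replicate 3 at 1.0% Ca, far above the other 3 birds on that diet, which lay between 102 and 127 CPM. Its gap to the next bird was 0.844 of the group's range, above the 95% critical value of Dixon's test for 4 samples. About 5% of groups pass that value by chance. The members, the other locus called KLF2, the identified list genes, the tested neighbours and GAPDH were all screened in this way, so the flag by itself is no result about OTUD1. The same bird had the lowest KLF2 (190 CPM) and APOLD1 (25.5 CPM) of its diet.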

How the results depend on the processing

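KLF2 and APOLD1 were lower at the higher Ca under every alternative run. Without a bird, KLF2 lay between -0.52 and -0.22 (0.8 to 1.0% Ca), -1.14 and -0.91 (0.8 to 1.2% Ca) and -0.79 and -0.48 (1.0 to 1.2% Ca), and its slope between -0.56 and -0.45. APOLD1 lay between -1.28 and -0.22, -2.05 and -0.75, and -1.18 and -0.12, and its slope between -1.01 and -0.39. The lane difference at 1.0% Ca changed sign, between -0.45 and 0.44 for KLF2 (-0.08 without replicate 1, -0.45 without replicate 4) and between -0.39 and 1.09 for APOLD1 (-0.39 without replicate 4). The correlation within diets kept its sign. Its exact permutation p rose to 0.0521 (r = 0.844) without the 2 birds farthest from the median deviation of APOLD1, which leaves 8 birds and fewer orders.

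Calls over all genes depended on the tool. From 0 by the quasi-likelihood test they became 22, 19, 3 and 35 (pairs in the order above, then the slope) by the likelihood ratio test, with 1 for lanes, and 31, 42, 3 and 56 by DESeq2. The order of the pairs is 0.8 to 1.0, 0.8 to 1.2 and 1.0 to 1.2% Ca. Without a bird the quasi-likelihood test called 0 to 2, 0 and 0 to 1 genes, and 0 to 44 for the slope, where the 44 came without replicate 3 at 1.2% Ca, the bird with the highest APOLD1 of its diet. The cause was not tested.

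No pairing of the birds by replicate number was seen, though 8 pairs with unknown pens do not settle whether there was one. The r of deviations across genes was -0.41 to 0.32 in 8 pairs of the same number and -0.34 to 0.46 in 25 pairs of different numbers. With the replicate number as a block, the log2 differences between 0.8 and 1.2% Ca were -0.95 for KLF2 and -1.19 for APOLD1, and 0 genes were called.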
